A study of Mus musculus with 18 samples.

Results

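The amyloid precursor protein, its relatives and the enzymes and partners that act on it were followed in ribosome-bound RNA of entorhinal cortex layer II neurons after the level of the splicing regulator Ptbp1 had been modulated. The 9 genes, of 39017 identifiers in the gene tables, were chosen by name: App, Aplp1, Aplp2, Bace1, Adam10, Psen2, Ncstn, Sorl1 and Apoe. The method was TRAP, translating ribosome affinity purification, in which tagged ribosomes of a chosen cell type are captured together with the mRNA they carry. There were 18 libraries in 2 experiments, each from a different mouse whose left and right entorhinal cortex had been combined.

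In the silencing experiment 4 libraries came from mice injected with an mCherry vector carrying an shRNA against Ptbp1 (label Ptbp1_shRNA) and 5 from mice injected with an mCherry vector carrying a scrambled shRNA (label Scrambled_shRNA). In the overexpression experiment 5 libraries came from mice given a Ptbp1 vector with mCherry (label PTBP1_OE) and 4 from mice given a control vector with mCherry (label control_OE). The submitters left out 1 mouse with the Ptbp1 shRNA and 1 with the control vector for lack of mCherry reads. Nothing in the labels gives the age, sex or strain of the mice or the promoter that drives the ribosome tag. The tissue label of all libraries reads hippocampus, against the title and design, which name the entorhinal cortex. The 8 genes listed as markers of superficial excitatory neurons were Slc17a7, Camk2a, Neurod6, Nrgn, Reln, Calb1, Lef1 and Wfs1. They summed to between 1558 and 4555 CPM (gene counts scaled to a common library total) in every library, and none was at 0. No comparison between tissues or layers was made, so these sums cannot tell hippocampus from entorhinal cortex or show the layer.

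App is a membrane protein with a large extracellular part. Cleavage by an alpha-secretase such as Adam10 releases a soluble ectodomain and precludes amyloid-beta, whereas cleavage by the beta-secretase Bace1 followed by gamma-secretase, a complex that holds a presenilin and nicastrin, releases amyloid-beta. Aplp1 and Aplp2 are relatives of App that are processed by the same enzymes and lack the amyloid-beta stretch. Sorl1 is a sorting receptor that returns App from endosomes, and Apoe is a lipid carrier made mainly by astrocytes that binds amyloid-beta. App pre-mRNA has 3 alternative exons: exon 7 encodes a Kunitz protease inhibitor (KPI) domain, exon 8 a short OX2-related stretch, and exon 15 lies next to a site at which a chondroitin sulfate chain is attached when the exon is skipped. Neurons mostly make the form without exons 7 and 8. Ptbp1 and its neuronal paralog Ptbp2, which bind polypyrimidine tracts, have been linked to the choice of these exons in cultured neuronal cells.

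The alternative exons are shown because they are the stretches of these genes in which an exon choice could appear. They were read from GENCODE M21 transcripts in build mm10, are written 5′ to 3′ on the coding strand, which is the minus strand for both genes, and have the exon in capitals between 15 bases of the adjoining exons. App exon 7 lies at chr16:85043576-85043743, exon 8 at chr16:85040251-85040307 and exon 15 at chr16:84971408-84971461.
App exon 7: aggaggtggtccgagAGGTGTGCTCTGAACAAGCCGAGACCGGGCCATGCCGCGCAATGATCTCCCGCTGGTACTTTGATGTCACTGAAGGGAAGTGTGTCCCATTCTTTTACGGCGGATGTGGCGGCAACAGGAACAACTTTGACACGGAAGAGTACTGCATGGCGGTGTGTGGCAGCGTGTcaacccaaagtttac
App exon 8: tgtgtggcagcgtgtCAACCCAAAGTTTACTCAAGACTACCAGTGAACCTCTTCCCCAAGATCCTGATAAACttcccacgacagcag
App exon 15: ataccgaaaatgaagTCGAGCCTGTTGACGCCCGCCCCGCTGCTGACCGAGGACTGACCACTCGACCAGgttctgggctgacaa
The 2 alternative exons of Aplp2, its own KPI exon at chr9:31167561-31167728 and a 36-base exon at chr9:31156190-31156225 that likewise lies next to a chondroitin sulfate site, follow.
Aplp2 KPI exon: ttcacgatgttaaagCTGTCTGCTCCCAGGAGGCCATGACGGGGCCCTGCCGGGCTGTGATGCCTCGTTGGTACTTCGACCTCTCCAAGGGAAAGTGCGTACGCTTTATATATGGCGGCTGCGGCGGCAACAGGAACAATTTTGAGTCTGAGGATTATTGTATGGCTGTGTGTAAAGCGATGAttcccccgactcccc
Aplp2 36-base exon: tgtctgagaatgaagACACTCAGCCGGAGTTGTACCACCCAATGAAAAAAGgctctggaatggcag
The KPI exons of App and Aplp2 are both 168 bases long and carry the same base at 114 positions, or 67.9%, when set side by side without gaps. The deposited exon counts follow an App model of 16 exons, in which exons 7 and 8 have no bin of their own, so reads of these 2 exons were not analysed here. Exon 15 of App has a bin. Aplp2 has 18 bins in the deposited files against 19 when the annotation is rebuilt, because 2 transcripts differ slightly at their first exon. The bins of its KPI exon and its 36-base exon were identified by joining that pair, which is an inference from the annotation.

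The libraries held 34339355 to 46544178 gene counts in the silencing experiment and 18288627 to 39056655 in the overexpression experiment. Coverage along genes was less even in the silencing libraries: of 56285 exon bins that averaged 50 counts or more, 1.24% to 8.30% had no count in a silencing library, against 0.0213% to 0.0551% in an overexpression library. The Ptbp1 transcript itself served as a check of the vectors. It reached 118 to 158 CPM in the 5 PTBP1 overexpression libraries against 9.96 to 17.2 CPM in the 4 control libraries, a log2 fold change of 3.36 ± 0.151 (SE, edgeR quasi-likelihood test with Benjamini-Hochberg adjustment over all genes, adjusted p = 5.5e-08). Ptbp2 averaged 47.5 ± 6.51 CPM in PTBP1 overexpression libraries and 109 ± 2.54 CPM in controls (SD, n = 5 and 4; log2 fold change -1.20 ± 0.102 SE, adjusted p = 7.8e-05 in edgeR). In the silencing experiment Ptbp1 held 4 to 501 counts in libraries labelled Ptbp1 shRNA and 16 to 289 counts in scrambled libraries, and the log2 fold change of 0.31 had a 95% interval of -2.43 to 3.05. A reduction of Ptbp1 was thus not detectable in these libraries at this spread, and directions in this experiment are given only by the label.

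None of the 9 genes passed the test in either experiment. In overexpression all 9 were tested, their log2 fold changes lay between -0.30 and 0.17, and adjusted p lay between 0.974 and 0.998 in edgeR. The smallest unadjusted p was 0.125, so 0 of 9 genes had an unadjusted p under 0.05, where 4.78% of the 16480 genes tested did. Over all genes 7 were called (0.0425%). In silencing 8 genes were tested, log2 fold changes lay between -2.76 and 0.28, and adjusted p lay between 0.595 and 0.941. Again 0 of 8 had an unadjusted p under 0.05, against 11.2% of 14656 genes, and no gene at all was called (0%) in edgeR, against 426 in DESeq2 and 69 in limma-voom. DESeq2 and limma-voom called 0 of the 9 genes in either experiment. The CPM values of the 2 groups overlapped for every one of the 9 genes in both experiments, while 1.81% of all genes in overexpression and 4.84% in silencing had groups that did not overlap. The median size of the log2 fold change was 0.088 over the 9 genes and 0.127 over all genes in overexpression, and 0.18 over the 8 tested genes and 0.56 over all genes in silencing. In overexpression the log2 fold change was below 0 for 6 of the 9 genes, against 50.02% of all genes, and in silencing for 5 of the 8, against 48.8%.

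**Figure D1:**
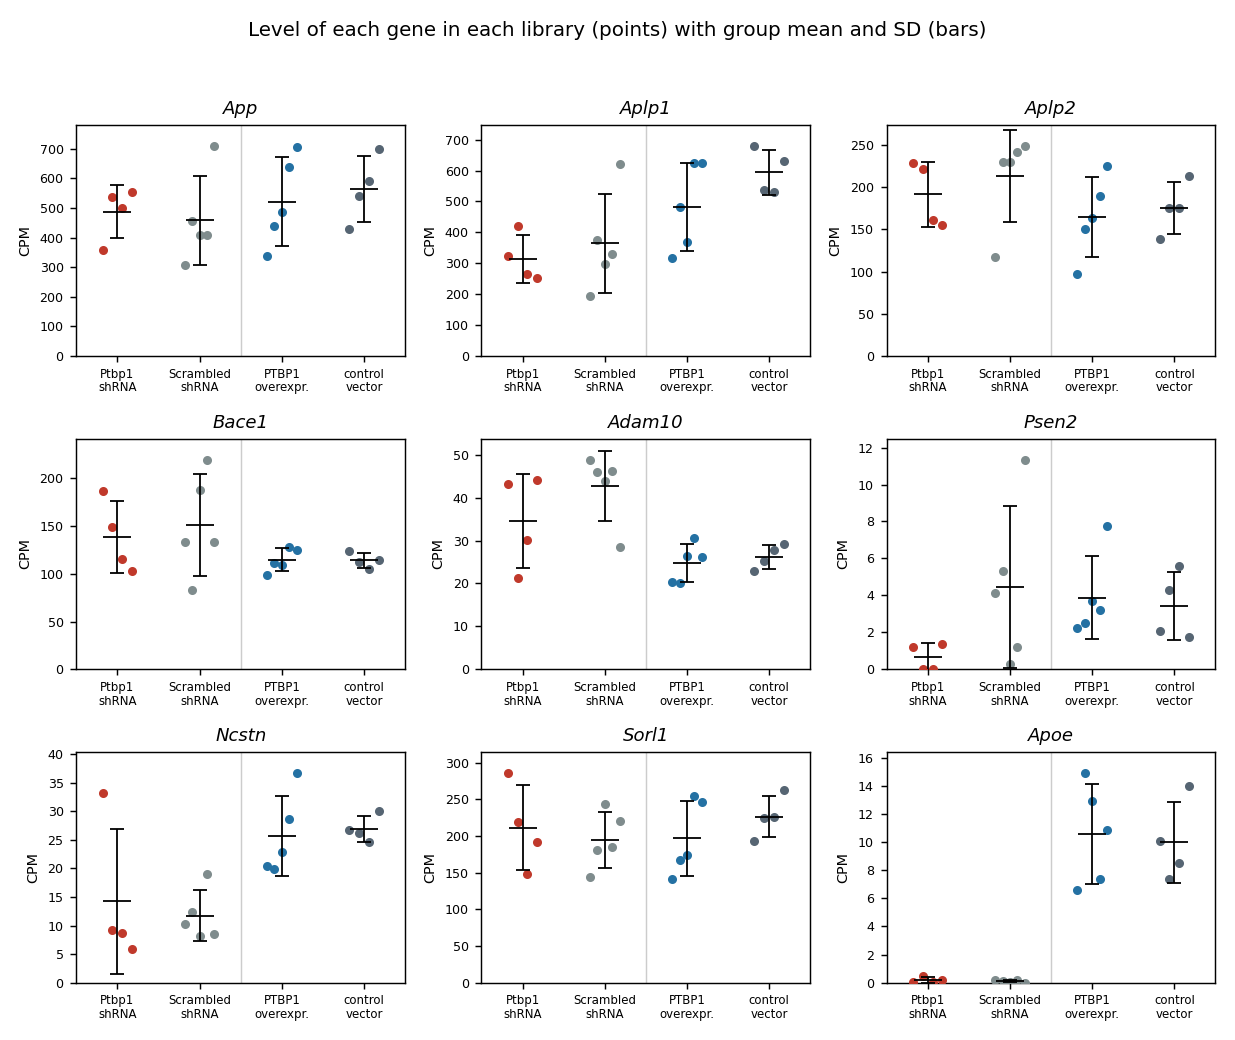
Level of each of the 9 genes in CPM on linear axes that start at 0, with 1 point per library, a bar at the group mean and whiskers of 1 SD. From left to right the groups are Ptbp1 shRNA (n = 4), scrambled shRNA (n = 5), PTBP1 overexpression (n = 5) and control vector (n = 4); within each experiment the points of the 2 groups overlap for all 9 genes, and Apoe lies near 0 in the silencing experiment.

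Levels differed widely between the genes. Per kilobase of exon, the control vector libraries averaged 254 ± 31.1 CPM for Aplp1, 178 ± 35.1 for App and 47.8 ± 8.36 for Aplp2 (SD, n = 4). Sorl1 followed with 19.98 ± 2.51 CPM per kilobase and Bace1 with 17.96 ± 1.25. The least abundant were Ncstn with 6.76 ± 0.569, Adam10 with 5.34 ± 0.570, Apoe with 4.98 ± 1.44 and Psen2 with 0.898 ± 0.482 CPM per kilobase. Sorl1 and Bace1 overlapped in their library values, and Apoe overlapped with both Adam10 and Ncstn. In the scrambled shRNA libraries Aplp1 averaged 155 ± 67.8, App 144 ± 47.2 and Aplp2 58.1 ± 14.8 CPM per kilobase (SD, n = 5). The App family thus led per kilobase in both experiments, and Aplp1 and App lay within their spread of each other. Bace1 had 23.8 ± 8.39, Sorl1 17.2 ± 3.38, Adam10 8.69 ± 1.66 and Ncstn 2.95 ± 1.12 CPM per kilobase in the scrambled libraries. Psen2 followed with 1.16 ± 1.14 and Apoe with 0.052 ± 0.038. In CPM without division by length, Sorl1 averaged 226 ± 28.4 and Aplp2 176 ± 30.7 in control vector libraries (SD, n = 4). In scrambled libraries Sorl1 averaged 195 ± 38.3 and Aplp2 213 ± 54.5 CPM (SD, n = 5). The experiments were scaled separately, so these levels are set side by side without a test.

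App, the precursor itself, is a gene of 16 counted exons on chromosome 16 (chr16:84949685-85173766, minus strand, ENSMUSG00000022892). It was found at 339, 438, 485, 638 and 707 CPM in the PTBP1 overexpression libraries and at 430.3, 542, 589.8 and 699 CPM in the control libraries. The overexpression values span the whole range of the controls and reach below it. That gave a log2 fold change of -0.12 ± 0.193 (SE), with a 95% interval of -0.53 to 0.30 and an adjusted p of 0.978 in edgeR. On the linear scale that interval runs from 0.691-fold to 1.23-fold. In the silencing experiment App was at 357, 538, 498 and 554 CPM in Ptbp1 shRNA libraries and at 309, 457, 408, 408 and 709 CPM in scrambled libraries. The highest and the lowest value both belonged to scrambled libraries. The log2 fold change was 0.09 ± 0.246 (95% interval -0.44 to 0.62, adjusted p = 0.941 in edgeR), and without scrambled replicate 1 it was -0.03.

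Aplp1, a relative of App found mainly in neurons (chr7:30434982-30445535, minus strand, ENSMUSG00000006651), had 317, 481, 369, 625 and 624 CPM in PTBP1 overexpression libraries and 679, 537, 529 and 631 CPM in control libraries. Of the 5 overexpression libraries 3 lay below all controls and 2 within their range. This gave the lowest log2 fold change among the 9 genes in that experiment, -0.30 ± 0.182 (95% interval -0.69 to 0.09, adjusted p = 0.974 in edgeR). The Ptbp1 shRNA libraries had 323, 422, 264 and 252 CPM of Aplp1, against 194, 377, 298, 329 and 622 CPM in scrambled libraries, a log2 fold change of -0.21 ± 0.302. Without scrambled replicate 5, the library with 622 CPM, it was 0.07.

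Aplp2, the more widely expressed relative (chr9:31149557-31211815, minus strand, ENSMUSG00000031996), had 97.3, 150.2, 164, 189 and 225 CPM in PTBP1 overexpression libraries and 138, 175, 175 and 214 CPM in control libraries. The ranges overlapped and the log2 fold change was -0.09 ± 0.195 (95% interval -0.51 to 0.33). In silencing it had 229, 221, 161 and 155 CPM in Ptbp1 shRNA libraries, against 117, 229.9, 230.2, 241 and 249 CPM in scrambled libraries. Scrambled replicate 1 stood below all others, and the log2 fold change was -0.16 ± 0.258.

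Bace1, the beta-secretase (chr9:45838580-45864399, plus strand, ENSMUSG00000032086), varied least of the 9 genes in the overexpression experiment. It had 99.2, 111, 109, 128 and 125 CPM in PTBP1 overexpression libraries and 124, 112, 105 and 115 CPM in control libraries, with a coefficient of variation of 10.5% and 6.98%. The log2 fold change was 0.01 ± 0.094 and its 95% interval of -0.20 to 0.21, or 0.873-fold to 1.16-fold, was the narrowest of the set. In silencing the values spread further: 187, 149, 115 and 103 CPM in Ptbp1 shRNA libraries, against 133, 82.7, 187, 219.6 and 133 CPM in scrambled libraries. Its log2 fold change there was -0.13 ± 0.304 (95% interval -0.78 to 0.53).

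Adam10, the main alpha-secretase of neurons (chr9:70678997-70780229, plus strand, ENSMUSG00000054693), had 20.3, 20.2, 26.4, 30.5 and 26.2 CPM in PTBP1 overexpression libraries and 22.9, 25.1, 27.7 and 29.2 CPM in control libraries. The log2 fold change was -0.09 ± 0.142 (95% interval -0.39 to 0.22). Ptbp1 shRNA libraries had 43.2, 21.2, 30.0 and 44.0 CPM, against 48.9, 46.0, 43.9, 46.3 and 28.5 CPM in scrambled libraries. Here 4 of the 5 scrambled libraries lay close together and scrambled replicate 5 lay well below them. A log2 fold change of -0.30 ± 0.358 resulted (95% interval -1.08 to 0.47, adjusted p = 0.828 in edgeR).

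Psen2, the catalytic presenilin subunit measured here (chr1:180227004-180263438, minus strand, ENSMUSG00000010609), was the lowest of the set in overexpression. It had 92, 82, 78, 77 and 175 counts in PTBP1 overexpression libraries and 49, 109, 101 and 41 counts in control libraries, with a log2 fold change of 0.17 ± 0.415. In silencing it had 58, 0, 0 and 53 counts in Ptbp1 shRNA libraries, against 159, 223, 13, 55 and 350 counts in scrambled libraries. The 2 shRNA libraries at 0 are compatible with up to 3 counts each, a limit that covers counting error only. The fitted log2 fold change of -2.76 ± 1.68 was the largest of the set, but its 95% interval ran from -6.40 to 0.88 (adjusted p = 0.595 in edgeR). The groups overlapped, since the 2 shRNA libraries with counts exceeded scrambled replicates 3 and 4 in CPM.

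Ncstn, or nicastrin, the gamma-secretase subunit that binds substrates (chr1:172066013-172082795, minus strand, ENSMUSG00000003458), had 20.4, 19.9, 22.8, 28.6 and 36.8 CPM in PTBP1 overexpression libraries and 26.7, 26.1, 24.6 and 30.0 CPM in control libraries. The log2 fold change was -0.07 ± 0.171 (95% interval -0.43 to 0.30). In silencing it had 33.2, 9.21, 8.66 and 5.80 CPM in Ptbp1 shRNA libraries and 10.3, 12.4, 8.20, 19.1 and 8.53 CPM in scrambled libraries. The fold change of 0.28 ± 0.623 on the log2 scale rested on Ptbp1 shRNA replicate 1 and was -0.57 without it.

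Sorl1, the sorting receptor (chr9:41964720-42124297, minus strand, ENSMUSG00000049313), had 141, 168, 174, 254 and 246 CPM in PTBP1 overexpression libraries and 192, 225, 226 and 262 CPM in control libraries. Of the overexpression libraries 3 lay below all controls, and the log2 fold change was -0.20 ± 0.161 (95% interval -0.55 to 0.14, adjusted p = 0.974 in edgeR). In silencing it had 286, 219, 148 and 192 CPM in Ptbp1 shRNA libraries and 144, 181, 244, 185 and 219.7 CPM in scrambled libraries. Its log2 fold change there was 0.12 ± 0.244, and -0.06 without Ptbp1 shRNA replicate 1.

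Apoe (chr7:19696109-19699188, minus strand, ENSMUSG00000002985) had 270, 486, 272, 179 and 246 counts in PTBP1 overexpression libraries and 237, 186, 153 and 327 counts in control libraries, or 10.5 ± 3.56 and 9.97 ± 2.88 CPM (SD, n = 5 and 4). Their ratio on the log2 scale was 0.08 ± 0.255 (95% interval -0.47 to 0.62). In silencing it had 1, 18, 1 and 7 counts in Ptbp1 shRNA libraries and 7, 4, 3, 8 and 0 counts in scrambled libraries, too few to be tested, and the upper limit for the library at 0 is 3 counts. The 13 astrocyte markers, which mark the main source of Apoe, summed to 428 to 1008 CPM in Ptbp1 shRNA and 889 to 1385 CPM in scrambled libraries, with up to 4 of the 13 at 0. They summed to 450 to 884 CPM in PTBP1 overexpression and 627 to 915 CPM in control libraries, with none at 0. Most of each sum came from the glutamate transporter Slc1a2 and the sodium pump subunit Atp1b2. Their means were 554 and 106 CPM in Ptbp1 shRNA and 850 and 303 CPM in scrambled libraries. The 2 groups did not overlap for Atp1b2, as for 4.84% of all genes, and it was not called (adjusted p = 0.0758 in edgeR). Of the astrocyte markers 11 were tested in silencing, with 5 log2 fold changes above 0 and 6 below. In overexpression 13 were tested, with 7 above 0 and 6 below, and 0 were called in either experiment in edgeR. Other markers were at low levels in silencing. The glycolytic enzyme Aldoc averaged 7.83 CPM in Ptbp1 shRNA and 5.72 CPM in scrambled libraries. Sox9 averaged 1.04 CPM in Ptbp1 shRNA and 6.27 CPM in scrambled libraries, and Gja1 0.289 and 1.91 CPM. Aldh1l1, which was not tested there, averaged 0.611 CPM in Ptbp1 shRNA and 0.0052 CPM in scrambled libraries. In overexpression Aldoc averaged 61.9 CPM in PTBP1 overexpression and 53.2 CPM in control libraries, and Aldh1l1 2.68 CPM in PTBP1 overexpression and 2.46 CPM in control libraries. The experiments were scaled separately, and the part of these markers in the Apoe values was not tested. In these TRAP libraries, which pool many cells, fewer cells of a type and less RNA captured per cell cannot be told apart. Whether and how RNA of astrocytes came into them was not tested.

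**Figure D2:**
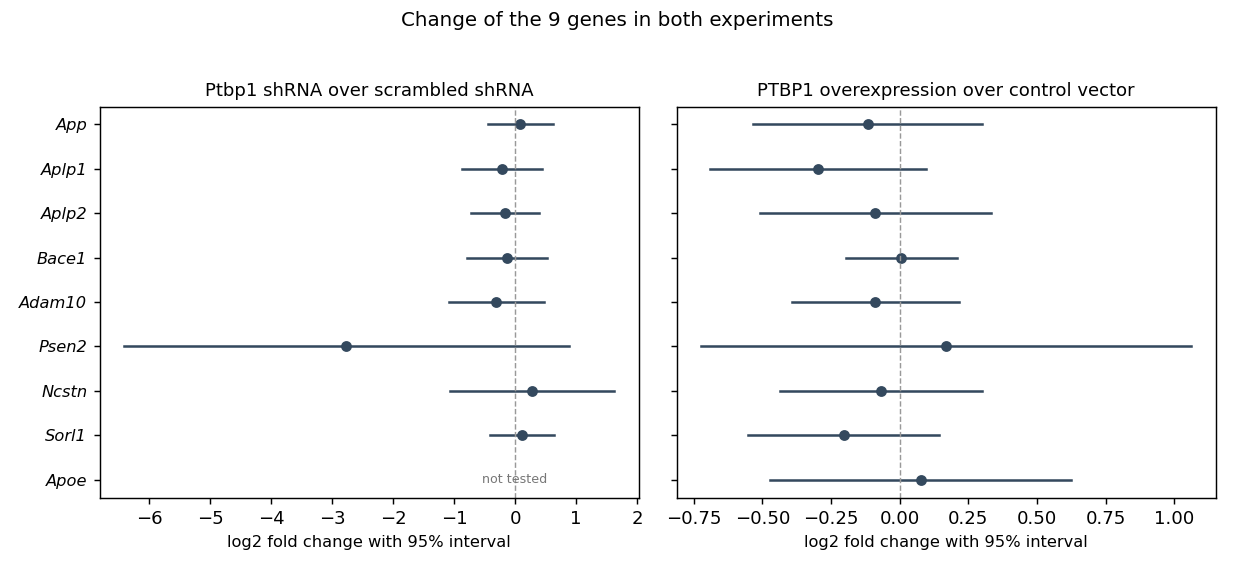
Log2 fold change of each gene with its 95% interval from edgeR, for Ptbp1 shRNA over scrambled shRNA (left) and PTBP1 overexpression over control vector (right), with different horizontal scales. Every interval includes 0; that of Bace1 in overexpression is the narrowest and that of Psen2 in silencing, from -6.40 to 0.88, the widest.

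The responses in the 2 experiments were also compared with each other in 1 fit over all 18 libraries, as the response to overexpression minus the response to silencing. For App the difference was -0.20 ± 0.323 on the log2 scale (95% interval -0.88 to 0.47, adjusted p = 0.860 in edgeR). For Sorl1 it was -0.32 ± 0.292, for Adam10 0.23 ± 0.366, for Bace1 0.14 ± 0.323 and for Psen2 2.93 ± 1.69. None of the 9 genes passed the test, and 40 of 17779 genes did (0.225%), with 14.6% at an unadjusted p under 0.05.

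App exon use was followed through the share of App bin counts that each bin held. In overexpression no App bin was called, and the changes in relative usage of its 16 bins lay between -0.06 and 0.08 on the log2 scale, the smallest p being 0.663 (edgeR diffSpliceDGE). In silencing they lay between -0.34 and 0.50, with a smallest p of 0.248. Exon 15 held 5.48%, 5.73%, 5.32%, 5.78% and 5.60% of App bin counts in the PTBP1 overexpression libraries and 6.43%, 5.54%, 5.50% and 5.19% in the control libraries. The overexpression values lay inside the control range, and the means of 5.58% ± 0.186 and 5.67% ± 0.536 (SD, n = 5 and 4) differed by -0.083 ± 0.281 percentage points (SE; exact two-sided permutation test over 126 splits, p = 0.817). In silencing exon 15 held 5.10%, 5.18%, 7.41% and 3.99% in Ptbp1 shRNA libraries, against 8.59%, 6.46%, 6.15%, 5.94% and 9.76% in scrambled libraries. The means were 5.42% ± 1.43 and 7.38% ± 1.70 (SD, n = 4 and 5), and the difference of -1.96 ± 1.05 percentage points had p = 0.127 in the same exact permutation test, two-sided. The smallest p this design allows is that of a single split among the 126. Without the 2 least evenly covered libraries, Ptbp1 shRNA replicate 2 and scrambled replicate 5, the difference was -1.28 percentage points (exact permutation p = 0.343). The bin on the 5′ side of exon 15 held 4.73% to 8.58% in Ptbp1 shRNA and 6.45% to 9.97% in scrambled libraries. That on its 3′ side held 8.46% to 13.2% in Ptbp1 shRNA and 10.9% to 18.6% in scrambled libraries. Both neighbours thus also reached lower values in Ptbp1 shRNA libraries.

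The profile along App differed between the experiments more than between groups. The last exon, which is also the longest, held 36.4% ± 5.23 of App bin counts in Ptbp1 shRNA and 30.5% ± 3.96 in scrambled libraries (SD, n = 4 and 5, exact permutation p = 0.0794). It held 13.6% ± 0.570 in PTBP1 overexpression and 14.7% ± 1.80 in control libraries (n = 5 and 4, exact permutation p = 0.238). The first 3 exons together held 1.72% ± 2.16 in Ptbp1 shRNA and 1.84% ± 1.18 in scrambled libraries, and 5.24% ± 0.541 in PTBP1 overexpression and 4.86% ± 0.289 in control libraries. The experiments share no control, and this difference between them was not tested.

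**Figure D3:**
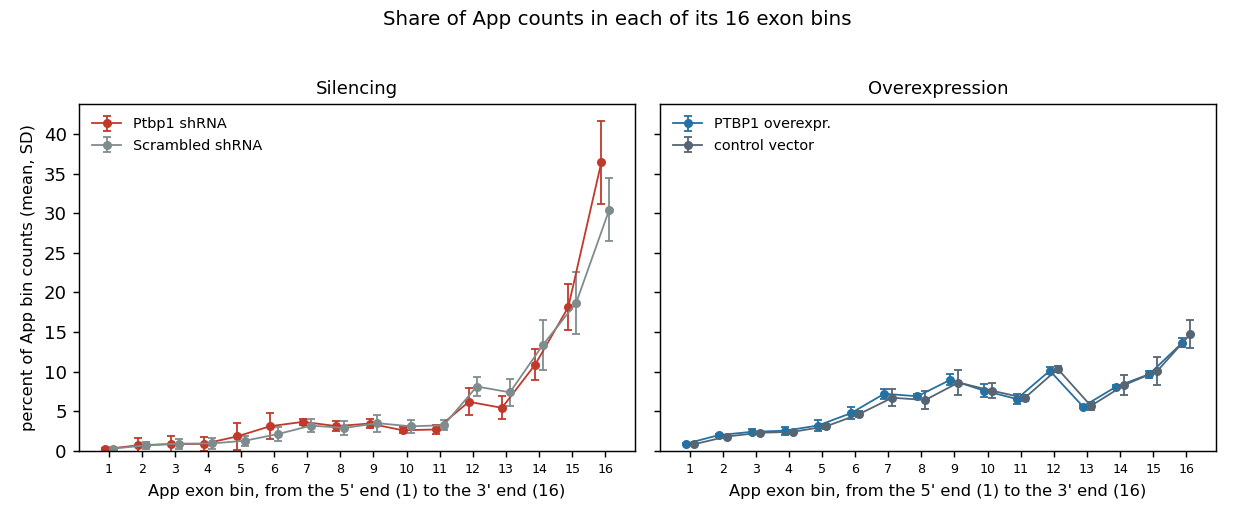
Percent of App bin counts in each of its 16 bins from the 5′ end to the 3′ end, as group mean with 1 SD, for silencing (left, Ptbp1 shRNA and scrambled shRNA) and overexpression (right, PTBP1 overexpression and control vector). Bin 13 in this order is exon 15; counts rise steeply towards the 3′ end in silencing, where the last bin holds 36.4% and 30.5%, and less in overexpression, where it holds 13.6% and 14.7%.

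For Aplp2, the KPI exon held 5.38%, 4.71%, 5.15%, 5.80% and 4.87% of the gene's bin counts in PTBP1 overexpression libraries and 3.57%, 5.82%, 3.97% and 6.37% in control libraries. The 5 overexpression values fell between the 2 low and the 2 high controls, and the means of 5.18% ± 0.431 and 4.93% ± 1.37 had p = 0.714 in the exact permutation test (SD, n = 5 and 4). In silencing it held 0.873% ± 0.536 in Ptbp1 shRNA and 1.58% ± 0.582 in scrambled libraries (n = 4 and 5, exact permutation p = 0.103), from 22 to 130 counts and 50 to 114 counts per library. The 36-base exon held 1.79% ± 0.293 in PTBP1 overexpression and 1.98% ± 0.251 in control libraries (exact permutation p = 0.373, n = 5 and 4). In silencing it held 369, 0, 4 and 257 counts in Ptbp1 shRNA libraries, against 34, 28, 53, 69 and 0 counts in scrambled libraries, so that 2 shRNA libraries stood far above and 2 below most scrambled ones (exact permutation p = 0.286, n = 4 and 5). Adjusted over the 6 tests of the 3 alternative exons, p lay between 0.381 and 0.817.

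**Figure D4:**
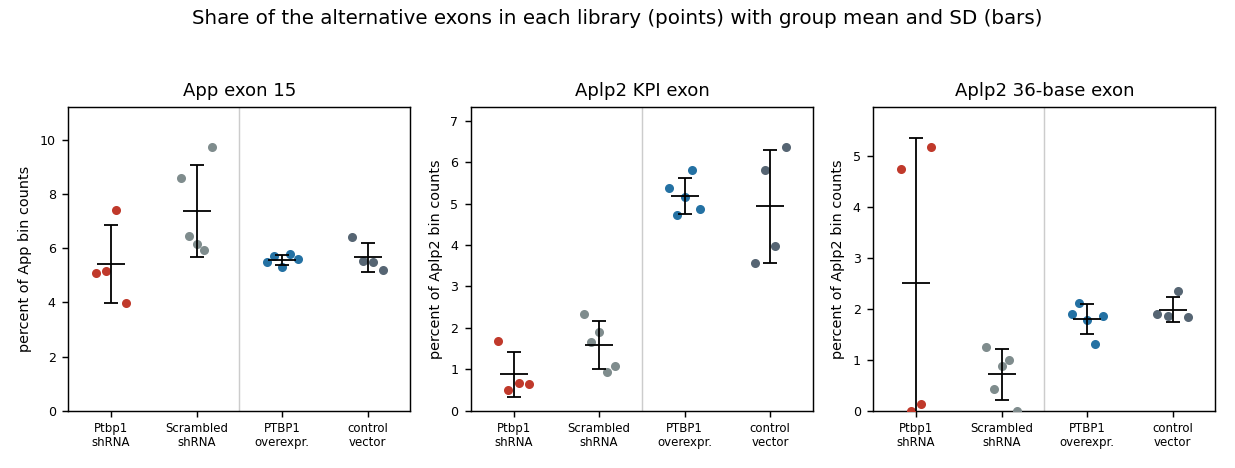
Share of App exon 15, the Aplp2 KPI exon and the Aplp2 36-base exon in the bin counts of their gene, in percent on axes that start at 0, with 1 point per library, a bar at the mean and whiskers of 1 SD (Ptbp1 shRNA, scrambled shRNA, PTBP1 overexpression and control vector from left to right). The 2 groups of each experiment overlap for all 3 exons, and points of the silencing experiment scatter more widely for exon 15 and the 36-base exon.

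Over all 9 genes 229 exon bins were listed. In overexpression 168 passed the count filter and 0 were called in edgeR or in limma's diffSplice; 0 had an unadjusted p under 0.05, where 1.37% of the 117580 bins tested did and 40 were called (0.034%). In silencing 108 bins of 7 genes were tested and 0 were called in either tool, while 7 (6.48%) had an unadjusted p under 0.05, against 1.96% of 83164 bins, of which 1 was called (0.0012%). The 7 belonged to Aplp1, Aplp2 and Sorl1 with 2 each and to Adam10 with 1. The median size of the change in relative usage was 0.087 over these genes' bins and 0.085 over all bins in overexpression, and 0.35 and 0.34 in silencing, on the log2 scale.

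Bace1 counts need a limit of their own. Its 135-base exon at chr9:45857114-45857248 lies wholly within Gm16536, a gene annotated on the opposite strand at chr9:45856769-45858357. In every silencing library the 2 bins of this exon held more counts than the bins on either side, with 110 to 638 counts per bin against 0 to 93. They held 12.1% ± 3.05 of Bace1 bin counts in Ptbp1 shRNA and 20.7% ± 15.7 in scrambled libraries (SD, n = 4 and 5), up to 46.0% in scrambled replicate 5, and 8.07% ± 1.92 in PTBP1 overexpression and 8.74% ± 1.66 in control libraries (n = 5 and 4). Gm16536 itself was at 14.5 to 26.9 CPM in Ptbp1 shRNA and 19.8 to 71.5 CPM in scrambled libraries, with 71.5 CPM in scrambled replicate 5. The strand setting of the counting is not stated, and in protein-coding genes with 1 bin the bin held a median of 48.0% to 49.1% of the gene's count in every library. Bace1 exons also overlap Rnf214 by 975 bases and Gm49338 by 951 bases, both on the opposite strand. Whether the gene counts keep reads of Bace1 and of these 3 genes apart where they overlap is therefore not known. Exons of App, Ncstn and Sorl1 also overlap genes on the other strand, by 113, 195 and 185 bases.

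The mouse number in the library titles, whose meaning the labels do not state, moved with App in the overexpression experiment. Mice 1, 2, 3, 9 and 10 had received the PTBP1 vector and mice 5 to 8 the control vector. App rose with this number with Pearson's r = 0.927 (exact permutation p = 4.4e-04, adjusted p = 0.00265 over 18 relations) and Spearman's rho = 0.933 (adjusted p = 0.00675) over 9 libraries, and r was 0.869 without the 2 libraries farthest from the median number. In a fit over all genes with the group and the number as terms, chosen after seeing the data, App rose by 0.105 ± 0.016 log2 units per number (SE, adjusted p = 0.00217 in edgeR). Sorl1 rose by 0.090, Aplp2 by 0.097, Ncstn by 0.083 and Aplp1 by 0.082 log2 units per number (adjusted p = 0.00207, 0.0112, 0.0183 and 0.0333 in edgeR). Bace1, Adam10, Psen2 and Apoe did not pass. Over all genes 647 of 16480 passed. With the number in the fit the App response to overexpression was 0.01 ± 0.097 on the log2 scale (adjusted p = 0.999 in edgeR), close to 0 as without it but with a smaller standard error.

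Marker sums and depth in the overexpression libraries were set against the mouse number as well. Of the 6 marker sums, that of the astrocyte markers passed, by Pearson's r alone, with r = 0.817 (exact permutation, adjusted p = 0.0463 over 12 relations; rho = 0.817, adjusted p = 0.0856). Most of that sum came from Slc1a2 and Atp1b2, as given above, and single markers were not set against the number. The oligodendrocyte markers had r = -0.714 (exact permutation, adjusted p = 0.101) and the interneuron markers r = -0.697 (adjusted p = 0.165). The gene count total had r = -0.643 (exact permutation p = 0.0596, adjusted p = 0.119), which fell to r = 0.119 without the 2 farthest libraries. Their part in the App values was not tested. In the silencing experiment odd numbers were Ptbp1 shRNA and even numbers scrambled mice. There App had r = 0.672 with the number over 9 libraries (exact permutation adjusted p = 0.106, rho = 0.583), and r fell to 0.298 without the 2 farthest libraries. In the fit with the number as a term 0 of 14656 genes passed in edgeR, and 688 had an unadjusted p under 0.05. App was among the latter, with a slope of 0.105 ± 0.038 log2 units per number (SE, unadjusted p = 0.0164, adjusted p = 0.972 in edgeR).

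**Figure D5:**
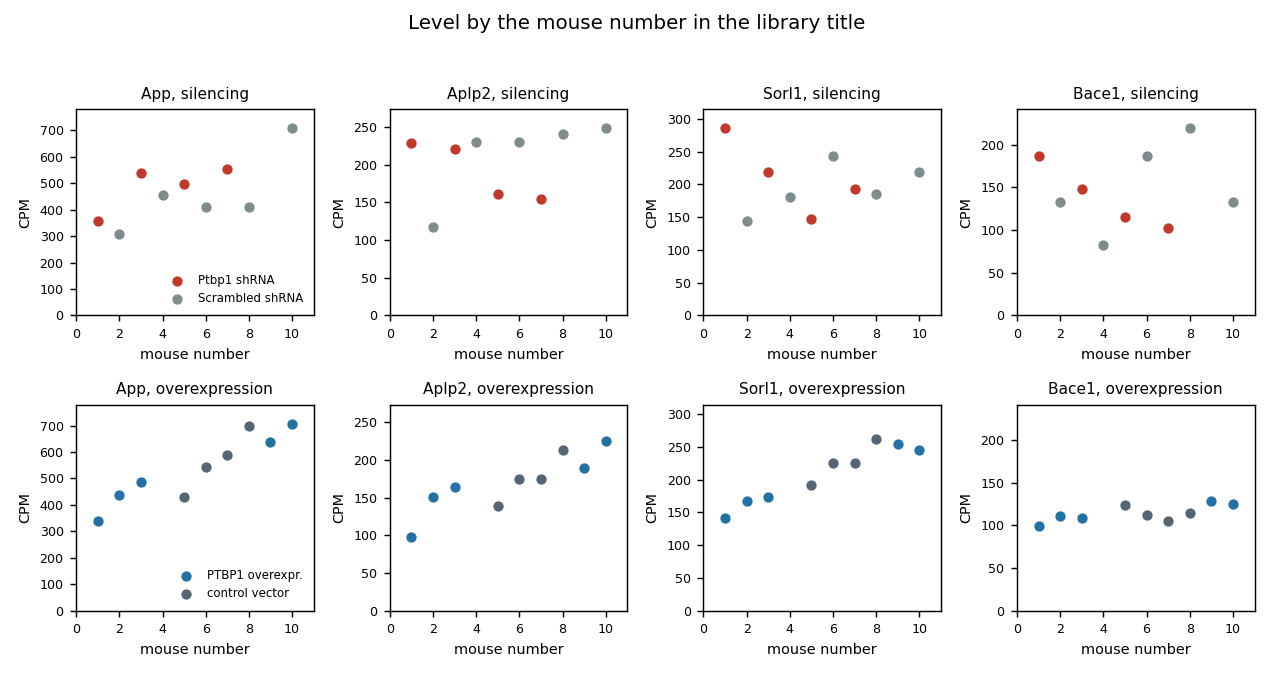
CPM of App, Aplp2, Sorl1 and Bace1 against the mouse number in the library title, for silencing (upper row, Ptbp1 shRNA and scrambled shRNA) and overexpression (lower row, PTBP1 overexpression and control vector), 1 point per library on axes that start at 0. In overexpression App, Aplp2 and Sorl1 climb with the number in both groups, with r = 0.927 for App, while in silencing no such line is seen for Aplp2, Sorl1 or Bace1.

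Across the 9 overexpression libraries 4 of the other 8 genes were correlated with App by Pearson's r, and 2 of these also by rank. Aplp2 had r = 0.970 (exact permutation, adjusted p = 8.8e-05 over 16 relations, r = 0.969 without the 2 farthest libraries) and rho = 0.983 (adjusted p = 7.9e-04). Sorl1 had r = 0.951 (adjusted p = 0.00154, r = 0.919 without the 2 farthest) and rho = 0.900 (adjusted p = 0.0162). Adam10 had r = 0.857 (adjusted p = 0.0172, r = 0.884 without the 2 farthest), while its rho of 0.733 did not pass (adjusted p = 0.125). Ncstn had r = 0.822 (adjusted p = 0.0267, r = 0.711 without the 2 farthest), and its rho of 0.783 did not pass either (adjusted p = 0.0919). Aplp1, Bace1, Psen2 and Apoe did not pass, nor did any gene in silencing, where Adam10 had r = -0.656 with App (adjusted p = 0.133) and Ncstn r = -0.533. These values share the mouse number trend given above, and 647 of 16480 genes passed for that number. How many of all genes were correlated with App in the overexpression libraries was not counted. The 4 of 8 can therefore not be called particular to these genes. Over the 7447 genes described next, the median r with App in overexpression was -0.018. Among 7447 genes with a mean of at least 10 CPM in both experiments, the 3 with a pattern most like that of App, by the mean of the 2 within-experiment Pearson correlations over 9 libraries each, were Epha5 (0.899), Ptprs (0.884) and Abca5 (0.881). Aplp1 ranked 147th with 0.693, Aplp2 198th with 0.661, Sorl1 462nd with 0.531, Ncstn 2455th with 0.144, Adam10 2834th with 0.101 and Bace1 2863rd with 0.097, against a median over all genes of 0.00085.

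Other genes of the pathway were taken from 5 lists: secretase partners, amyloid-beta degrading enzymes, App adaptors and partners, sorting genes, and Apoe receptors and lipidation genes. In overexpression 36 of 37 were tested, with 11 log2 fold changes above 0 and 25 below, and 0 were called in edgeR, 1 in DESeq2, which called 40 genes in all, and 0 in limma-voom. The median log2 fold change was -0.14, against -8.0e-05 over all genes, and 1 of 36 had an unadjusted p under 0.05, against 4.78% of all genes. That was Gga1, an adaptor that sorts Bace1 between endosomes and the Golgi, with 22.9 ± 2.06 CPM in PTBP1 overexpression and 16.4 ± 1.41 CPM in control libraries (SD, n = 5 and 4; log2 fold change 0.48 ± 0.119 SE, adjusted p = 0.534 in edgeR). Its groups did not overlap, as for 1.81% of all genes, and it was the gene called in DESeq2. The amyloid-beta degrading protease neprilysin, Mme, had 12.9 ± 2.56 CPM in PTBP1 overexpression and 16.9 ± 3.83 in control libraries. The retromer subunit Vps26a had 111 ± 11.9 CPM in PTBP1 overexpression and 126 ± 3.49 CPM in control libraries, and the reticulon Rtn4, also known as Nogo, 613 ± 92.1 CPM in PTBP1 overexpression and 715 ± 88.5 CPM in control libraries. Adjusted p of these 3 genes was 0.974 in edgeR.

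In silencing 35 of the 37 were tested, with 21 log2 fold changes above 0 and 14 below, and 0 were called in edgeR, 3 in DESeq2, which called 426 genes in all, and 0 in limma-voom. The median log2 fold change was 0.14, against 0.03 over all genes, and 6 of 35 (5 higher and 1 lower) had an unadjusted p under 0.05, against 11.2% of all genes. Vps26a had 262 ± 39.7 CPM in Ptbp1 shRNA and 145 ± 33.01 CPM in scrambled libraries (SD, n = 4 and 5; log2 fold change 0.86 ± 0.231 SE, adjusted p = 0.189 in edgeR). Its partner in retromer, Vps35, had 285 ± 70.9 CPM in Ptbp1 shRNA and 199 ± 34.4 CPM in scrambled libraries (log2 fold change 0.52, adjusted p = 0.424 in edgeR). The lipid transporter Abca1, which loads lipid onto Apoe, had 12.3 ± 14.6 CPM in Ptbp1 shRNA and 1.09 ± 0.525 in scrambled libraries (adjusted p = 0.217 in edgeR). The endothelin-converting enzyme Ece1, which degrades amyloid-beta, had 31.8 ± 14.6 CPM in Ptbp1 shRNA and 10.99 ± 6.81 CPM in scrambled libraries (adjusted p = 0.300 in edgeR). Groups did not overlap for Vps26a and Ece1, against 4.84% of all genes, and Abca1 and Vps26a were among the genes called in DESeq2. The 8 markers of superficial excitatory neurons were all lower in Ptbp1 shRNA libraries and 0 of them were called in edgeR (1 had an unadjusted p under 0.05), with sums of 1558 to 2694 CPM in Ptbp1 shRNA and 2853 to 4555 CPM in scrambled libraries. Their part in the values of these genes was not tested.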

How the data were processed

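The authors deposited whole-number counts per Ensembl gene, 1 table per experiment, and counts per exon bin, 1 file per library, with no normalization. STAR 2.5.3a and HTSeq were used with build mm10, per the submitters' processing notes; their roles, the annotation release and the strand setting are not stated.

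Each experiment was analysed alone in R 4.3.3 with edgeR 4.0.16: filterByExpr, TMM scaling, robust quasi-likelihood fit, with p-values adjusted over all genes by Benjamini-Hochberg and a threshold of 0.05. Levels in CPM are counts over the TMM-scaled total. Standard errors come from the fold change and F. Exon bins were tested with diffSpliceDGE, and shares of 3 alternative exons with exact two-sided permutation tests over all 126 label assignments. The gene test and the exon bin test were also run on simulated data, with results not given here. The permutation tests were not. Symbols matched 37607 of 39017 identifiers, and bins were placed by flattening GENCODE M21 transcripts numbered below 182000. DESeq2 1.42.0 and limma 3.58.1 served as alternatives. The total lines at the end of each exon file stayed out of all sizes and tests.

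The genes, the lists of other pathway genes and markers, and the tests were chosen with earlier results of these data known. Named genes are all 9 members and, of the lists, those called or with the 5 smallest p in each experiment, of which 1 gene is not reported here. The planned shares of App exons 7 and 8 could not be computed, because neither exon has a bin. Depth was 18288627 to 46544178 gene counts per library, and limits at 0 counts cover counting error only. The labels do not say more of the replicates than that each is 1 mouse, so p-values measure the spread between these mice. The numbers naming replicates follow accession order and pair no samples.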

Additional observations from a re-analysis of the deposited data

Results flagged for a closer look

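Of 48 groups of 4 or 5 libraries, taken over the 9 genes and the 3 alternative exons, 4 held a library that stood apart by Dixon's test at the 95% level, which chance gives in about 1 of 20 groups. Adam10 was at 28.5 CPM in scrambled shRNA replicate 5, against 43.9 to 48.9 CPM in the other 4 scrambled libraries. That library was also among the 2 least evenly covered, with 7.61% of well-counted bins at 0. Aplp2 was at 117 CPM in scrambled shRNA replicate 1, against 229.9 to 249 CPM in the others. The share of the Aplp2 36-base exon was 2.36% in control vector replicate 3, against 1.83% to 1.89% in the other 3 control libraries. The share of the Aplp2 KPI exon was 1.67% in Ptbp1 shRNA replicate 1, against 0.505% to 0.672% in the other 3 Ptbp1 shRNA libraries.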

How the results depend on the processing

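No log2 fold change of the 9 genes passed the threshold under any alternative run, in silencing (128 values, 7 with the opposite sign), overexpression (135, 20 opposite) or the difference of responses (171, 10 opposite); the smallest adjusted p was 0.168, 0.786 and 0.312. In silencing the count of genes called, 0 in the reported fit, was 11 without a filter on low genes, 426 in DESeq2, 69 in limma-voom, 1775 with 1 spread for all 18 libraries, and 0 to 5 with 1 library left out. In overexpression it was 7 in the reported fit, 40 in DESeq2, 0 with 1 spread for all 18 libraries and 6 to 9 with 1 library left out. The 40 genes called for the difference became 1 to 174 with 1 library left out, 174 without Ptbp1 shRNA replicate 4 and 1 without control replicate 4 or PTBP1 overexpression replicate 5. The cause of these shifts was not tested.

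With 1 library left out, silencing log2 fold changes ran from -0.027 to 0.30 for App, -0.39 to 0.073 for Aplp1, -0.31 to 0.045 for Bace1, -0.57 to 0.54 for Ncstn and -0.064 to 0.25 for Sorl1. Overexpression values ran from -0.25 to 0.0050 for App, -0.22 to 0.054 for Aplp2, -0.040 to 0.054 for Bace1, -0.24 to 0.49 for Psen2, -0.23 to 0.0055 for Ncstn and -0.094 to 0.29 for Apoe. The difference of responses ran from -0.36 to 0.088 for Aplp1, -0.058 to 0.23 for Aplp2, -0.031 to 0.32 for Bace1, -0.59 to 0.51 for Ncstn and -0.96 to 0.54 for Apoe. With the mouse number as a term, Aplp1 was 0.040 and Ncstn -0.24 in silencing, and App was 0.012, Aplp2 0.030 and Ncstn 0.022 in overexpression. Apoe in overexpression was -0.022 in limma-voom.

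No bin of the 9 genes was called under any alternative. Over all bins in silencing the count called, 1 in the reported fit, was 3 in limma-voom with diffSplice, 5 among bins averaging 50 counts or more, 0 without the 2 least evenly covered libraries and 0 to 3 with 1 library left out. The App exon 15 difference in overexpression was 0.268 percentage points with the neighbouring exons as denominator, and -0.243 to 0.173 with 1 library left out. In silencing it kept its sign and did not pass in any of 12 alternatives, among them that denominator. The alternatives for App exons 7 and 8 were not run. No paired analysis was possible because the labels give the groups no shared replicate numbers. Low counts limit Apoe and Psen2 in silencing.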
